A study of Mus musculus with 12 samples.

Results

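The enzymes that build glycosaminoglycan chains were followed in primary chondrocytes, the cartilage cells, treated with DEX, a synthetic glucocorticoid. The group held 32 genes, chosen by their known roles in making the linker, chondroitin and dermatan sulfate, and heparan sulfate, and not by a threshold on measured values, although earlier results of these data were known when it was drawn up. Of these, 30 had a probe set named by the platform annotation, while Xylt1 and Ndst1 were not analysed here. A probe set counted as expressed when its mean reached 50 intensity units in any of the 4 groups, which held for 28 members, out of 11053 expressed genes among 18194 named genes. Chst3 and Hs3st1 stayed below that minimum in each group, with group means of 14.7 to 19.4 for Chst3 and of 30.9 to 44.9 for Hs3st1.

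Cells came from the tibiae, femurs and humeri of CD1 mouse embryos at embryonic day 15.5, were freed with collagenase, and grew in monolayer. They received 100 nM DEX or DMSO, the vehicle, for 6 or 24 hrs, which gave 4 groups: DEX and vehicle at 6 hrs, and DEX and vehicle at 24 hrs. Each group had 3 arrays, numbered 1, 2 and 4, and the study describes 3 independent cell isolations. All groups share the strain, the isolation and the monolayer culture, in which the cells no longer lie in their growth plate zones.

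Glycosaminoglycans are long sugar chains that hang from core proteins such as aggrecan. Their synthesis begins with a short linker built on the core protein by a xylosyltransferase, galactosyltransferases and a glucuronosyltransferase. The first sugar added after the linker decides the kind of chain: Csgalnact enzymes start chondroitin sulfate, and an Extl enzyme starts heparan sulfate. Polymerases then lengthen the chain, and sulfotransferases and epimerases modify it. In cartilage the sulfated chondroitin chains of aggrecan hold water and resist compression, whereas heparan sulfate binds growth factors and hedgehog proteins at the cell surface.

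Array medians lay between 25.7 and 39.1 intensity units, and an array measures no read depth, so precision is set by the number of arrays and by signal over background. The 15 cartilage markers were all expressed, and their summed intensity was 27886 to 53988 per array. Of 8 established glucocorticoid-responsive genes, 7 rose at 6 hrs and 7 at 24 hrs, so the DEX label was borne out on the arrays. In these bulk samples, fewer cells of a type and less RNA per cell cannot be told apart. The 4 arrays of replicates 1 and 2 at 6 hrs shared a hybridization day and stood apart from the other 8, with Gapdh 3′ signal above its 5′ signal (a log2 difference of 0.49 to 0.74, against -0.33 to -0.22 elsewhere). Among the 28 members, 12 were lower and 4 were higher on every one of these 4 arrays than on any other array, which is 57.1% of the members, where 42.9% of all 20897 tested probe sets did so. DEX and vehicle arrays were balanced within each day, but no day held both time points. Levels at 6 and 24 hrs were therefore not compared.

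**Figure D1:**
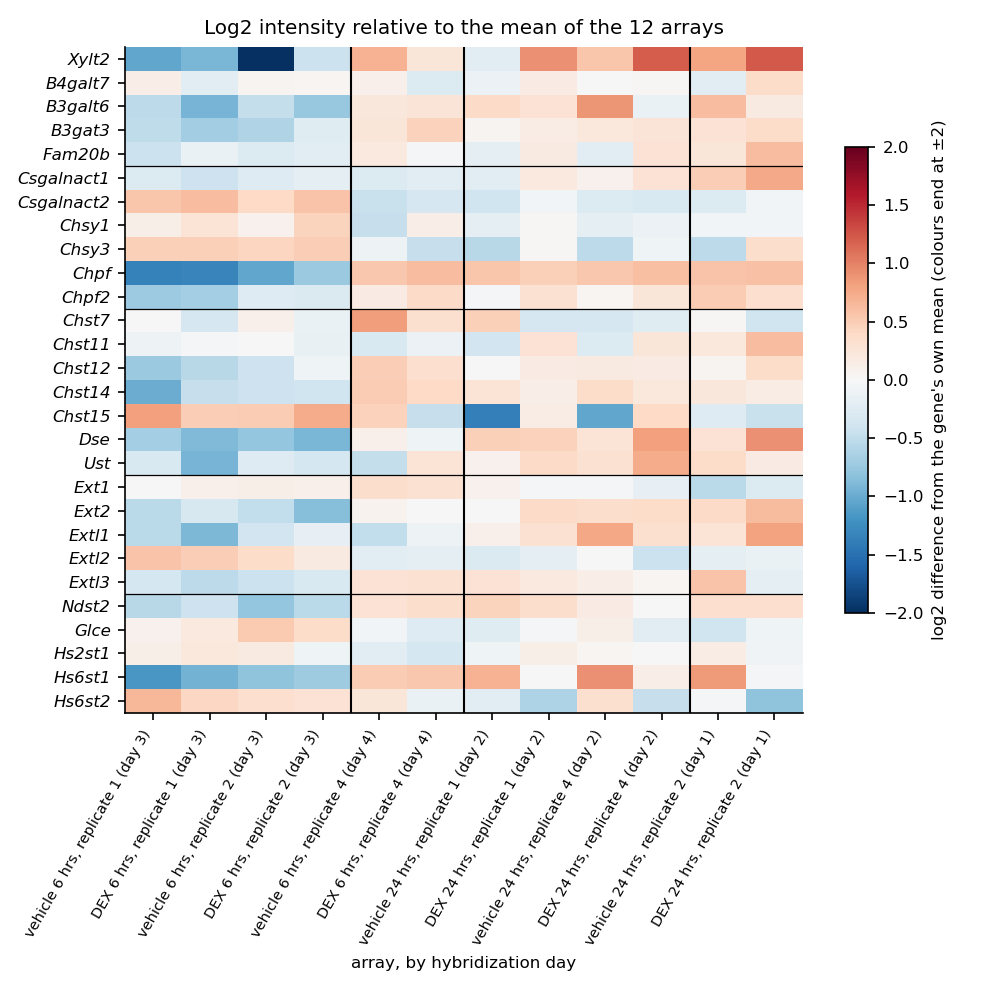
Log2 intensity of each of the 28 expressed members (rows, by role) on the 12 arrays (columns, by hybridization day), relative to the gene's own mean over the arrays; red is above and blue below that mean. The first 4 columns, replicates 1 and 2 at 6 hrs on day 3, differ from the rest for 16 members, for instance Chpf, Hs6st1 and Dse (low) and Csgalnact2 and Chsy3 (high).

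DEX was compared with vehicle within pairs, each made of same-numbered arrays from the same time. Over the whole family, few members passed the test. At 6 hrs, 0 of 28 passed with limma at an adjusted p under 0.05, where 0.904% of all tested probe sets did; 1 member (Chsy1) had an unadjusted p under 0.05, as did 11.3% of all. At 24 hrs, 1 of 28 passed, Hs6st1, which fell; 2.15% of all tested probe sets passed at that time, and 0.703% passed and fell. Over both times, 1 of 28 passed, Hs6st2, which also fell, where 3.20% of all tested probe sets passed and 1.29% passed and fell. A single call is 3.57% of the members. Unadjusted p was under 0.05 for 9 of 28 members at 24 hrs, beside 17.1% of all tested probe sets, and for 8 of 28 over both times, beside 14.7%.

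At 6 hrs the members' median log2 fold change was 0.01, beside -0.01 over all tested probe sets, and at 24 hrs it was 0.09, beside -0.03. At 6 hrs, 16 of 28 members lay above 0 (48.0% of all tested probe sets did), and at 24 hrs, 19 of 28 (45.1% of all). The 95% interval of the fold change stayed within 2-fold either way for 26 of 28 members at 6 hrs (90.7% of all probe sets) and for 25 of 28 at 24 hrs (88.8% of all). Over both times this held for 27 of 28 (95.7% of all). For most members a change of more than 2-fold was thus outside the interval. DEX and vehicle arrays did not overlap for 2 members at 6 hrs, B4galt7 and Chsy1, which is 7.14% beside 6.00% of all tested probe sets. At 24 hrs they did not overlap for 8 members, Xylt2, B4galt7, B3galt6, Chsy3, Chst11, Chst14, Hs6st1 and Hs6st2, which is 28.6% beside 19.4% of all. Xylt2, counted here and among the 19 above 0, met the minimum only through DEX at 24 hrs, so the filter favoured its rise there.

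**Figure D2:**
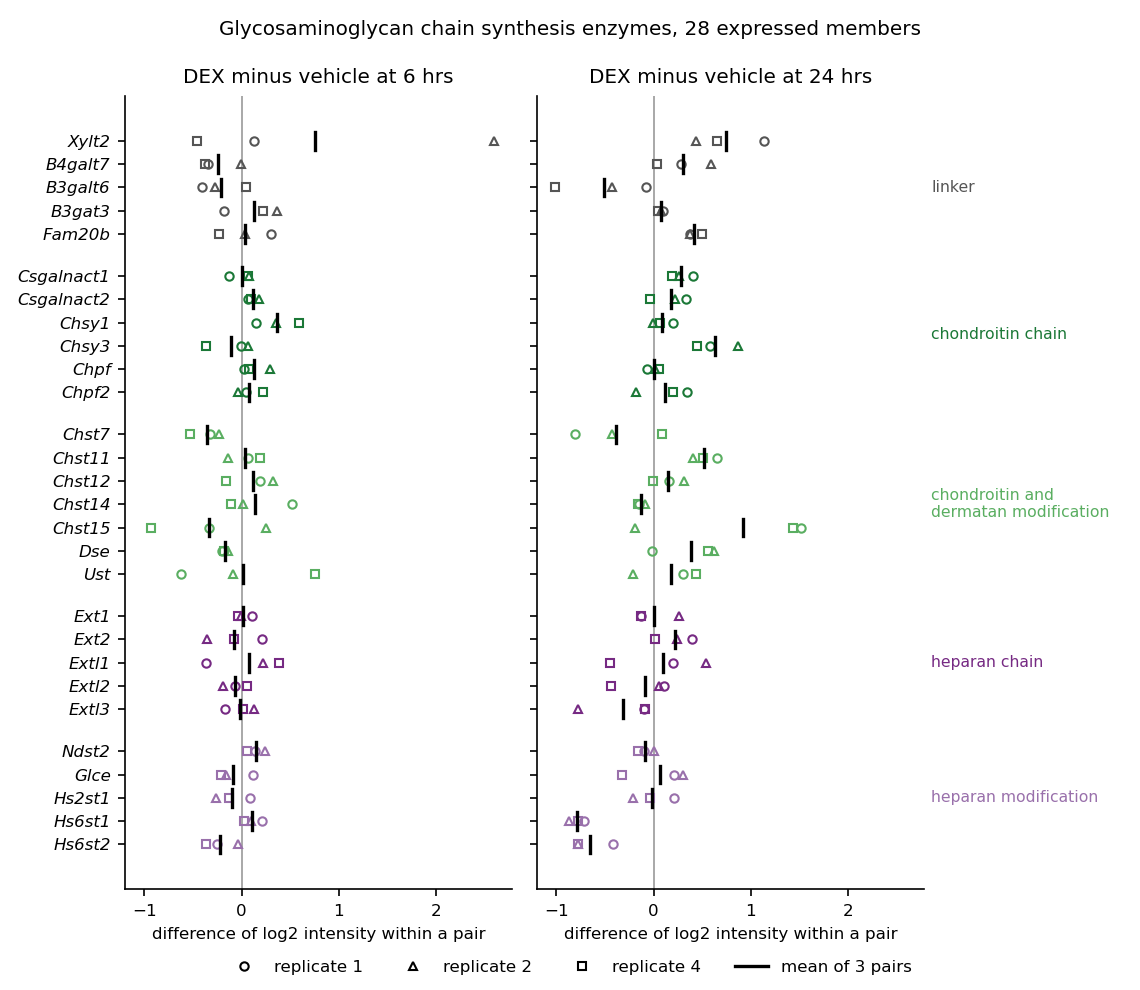
Difference of log2 intensity, DEX minus vehicle, within each of the 3 pairs at 6 hrs (left) and 24 hrs (right) for the 28 expressed members, grouped by role; open symbols are the replicates and black ticks their mean. At 24 hrs the 3 pairs of Hs6st1 lie between -0.87 and -0.71 and those of Hs6st2 between -0.77 and -0.42. Those of Chsy3 lie between 0.445 and 0.87 and those of Chst11 between 0.40 and 0.66. All 3 pairs at 24 hrs lie above 0 for 8 of the 28 members and below 0 for 5. The share of all tested probe sets that did so was not counted, so these counts show nothing particular to the members.

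Among the enzymes of the linker, none of the 5 expressed members passed the test at either time. Fam20b, the kinase that phosphorylates the xylose of the linker, had in vehicle 646, 721 and 991 intensity units at 6 hrs and 755, 1031 and 747 at 24 hrs, in the order of replicates 1, 2 and 4. With DEX it had 794, 739 and 842 at 6 hrs and 982, 1333 and 1057 at 24 hrs. The DEX array was thus the higher one of all 3 pairs at 24 hrs, although the groups overlapped. Its log2 fold change at 24 hrs was 0.42 ± 0.13 (SE), with an adjusted p of 0.165 in limma.

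B3gat3, the glucuronosyltransferase that completes the linker, had 198, 184.5 and 330.4 in vehicle and 174, 237 and 385 with DEX at 6 hrs. At 24 hrs it had 291, 344 and 325 in vehicle and 312, 362 and 335 with DEX. The groups overlapped at both times, and the log2 fold change at 24 hrs was 0.07, with an interval from -0.23 to 0.38. Another probe set of B3gat3 met the minimum only at 6 hrs; at 24 hrs it was dim, at 15.9, 8.10 and 23.3 in vehicle and 30.3, 27.9 and 25.8 with DEX, without overlap. Its log2 fold change at 24 hrs was 0.95, with an interval from 0.27 to 1.64 and an adjusted p of 0.163, so the probe sets of this gene differed in size. The galactosyltransferases pointed in opposite directions at 24 hrs without passing: B4galt7 went from a vehicle mean of 136 ± 10.2 (SD, n = 3) to 168 ± 20.1 with DEX, and B3galt6 from 235 ± 40.9 to 165 ± 24.9. B4galt7 is shown by a probe set whose name carries the maker's mark for possible cross-hybridization, and its other expressed probe set also lay above vehicle in all 3 pairs at 24 hrs. Xylt2, a xylosyltransferase that starts the linker, was dim and met the minimum only through DEX at 24 hrs, where its mean was 60.5 ± 7.12, beside 37.6 ± 12.5 in vehicle. Its vehicle array of replicate 2 at 6 hrs read 3.41, and the interval of its fold change at 24 hrs, -0.45 to 1.93 in log2, was the widest of the 28 members.

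The enzymes that start and lengthen chondroitin chains all lay above 0 in log2 at 24 hrs, from 0.0025 for Chpf to 0.63 for Chsy3, and 0 of 6 passed. Their median was 0.15, beside -0.03 over all tested probe sets, and 6 of 6 also lay above 0 with quantile normalization and with median centring. Chsy1, a chondroitin polymerase, had 1685, 1645 and 1126 in vehicle at 6 hrs and 1870.2, 2109 and 1697 with DEX. Every DEX array at 6 hrs was above every vehicle array, and the log2 fold change of 0.37 ± 0.12 had an adjusted p of 0.317. At 24 hrs Chsy1 had 1366.5, 1495 and 1360.1 in vehicle and 1573, 1489.5 and 1422 with DEX, which overlapped.

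Csgalnact1, which adds the first N-acetylgalactosamine and so commits a linker to chondroitin sulfate, had 895, 904 and 902 in vehicle and 818, 953 and 942 with DEX at 6 hrs. At 24 hrs it had 939, 1518 and 1157 in vehicle and 1241, 1827 and 1321 with DEX. Replicate 2 was the brightest of its group under either treatment at 24 hrs, and DEX was above vehicle within all 3 pairs. The log2 fold change was 0.29 ± 0.11 at 24 hrs, with an adjusted p of 0.245. Chsy3, another polymerase, came nearest to the threshold in this role: its vehicle mean at 24 hrs was 140 ± 1.54 (SD, n = 3), its DEX mean 218 ± 34.6, and DEX stood at 155.1% of vehicle (95% interval 124.2% to 193.8%, adjusted p = 0.0661). At 6 hrs Chsy3 was at 92.9% of vehicle (74.3% to 116.0%). Csgalnact2, Chpf and Chpf2 had log2 fold changes of 0.0025 to 0.17 at 24 hrs, with all intervals holding 0.

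Among the enzymes that sulfate and epimerize chondroitin and dermatan chains, 0 of 7 expressed members passed, and 5 of 7 lay above 0 at 24 hrs. Chst11, the main chondroitin 4-O-sulfotransferase of cartilage, had 1212, 1284.5 and 1049.9 in vehicle and 1271, 1164 and 1199 with DEX at 6 hrs. At 24 hrs it had 997, 1496 and 1076 in vehicle and 1574, 1981 and 1527 with DEX. The groups overlapped at 6 hrs and not at 24 hrs, when DEX was at 143.6% of vehicle (118.7% to 173.7%, adjusted p = 0.0738). Its other expressed probe set gave 144.3% at 24 hrs, with an adjusted p of 0.0893.

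Dse, the epimerase that turns chondroitin into dermatan sulfate, had 331, 309 and 567 in vehicle and 288, 281 and 501 with DEX at 6 hrs. At 24 hrs it had 736, 651 and 638 in vehicle and 729, 1002 and 941 with DEX. Replicates 2 and 4 were higher with DEX at 24 hrs and replicate 1 was not, and the log2 fold change of 0.39 ± 0.14 had an adjusted p of 0.233. Chst15, which adds a second sulfate to already sulfated chondroitin, had the highest log2 fold change of the family at 24 hrs, 0.92 ± 0.35, yet an adjusted p of 0.247. It was dim at that time, at 29.4 ± 12.2 (SD, n = 3) in vehicle, below the minimum, and 54.3 ± 15.3 with DEX. Its within-pair differences were 1.51 and 1.44 in replicates 1 and 4, which shared a hybridization day, and -0.19 in replicate 2. Within that day alone, on 4 arrays, it was the 1 member of 28 to pass, where 0.756% of all tested probe sets did. Chst7, a chondroitin 6-O-sulfotransferase, stood at -0.36 (6 hrs) and -0.38 (24 hrs) in log2 against vehicle, with intervals reaching 0.04 and 0.02. Chst12, Chst14 and Ust lay between -0.13 and 0.18 at 24 hrs, with intervals holding 0. The 3 DEX arrays of Chst14, the dermatan 4-O-sulfotransferase, were all below the vehicle arrays at 24 hrs, at 436 ± 13.0 against 478 ± 23.7 (SD, n = 3).

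The heparan chain enzymes had log2 fold changes of -0.32 to 0.22 at 24 hrs, and 0 of 5 passed. Ext1 and Ext2 form the heparan polymerase together. Ext1 had 499, 542 and 638 in vehicle and 535, 539 and 620.2 with DEX at 6 hrs, and 529, 347 and 491 in vehicle and 485, 416 and 448 with DEX at 24 hrs. In log2, DEX differed from vehicle by 0.02 at 6 hrs and by 0.0019 at 24 hrs, the latter with an interval from -0.28 to 0.29. Ext2 had 322, 332 and 492 in vehicle and 373, 259 and 465 with DEX at 6 hrs, and 464, 610.45 and 595 in vehicle and 609, 724 and 602 with DEX at 24 hrs. Groups of either gene overlapped at both times, and the 6 within-pair differences of Ext1 had both signs. Extl1, Extl2 and Extl3, relatives of the polymerase, had log2 fold changes of -0.32 to 0.10 at 24 hrs. The dimmer probe set of Extl2 lay below vehicle in all 6 pairs, with -0.33 ± 0.09 over both times and an adjusted p of 0.116, whereas the brighter one gave -0.08.

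The enzymes that modify heparan chains held both members that passed. Hs6st1 and Hs6st2 are heparan sulfate 6-O-sulfotransferases, which place a sulfate on glucosamine that takes part in binding fibroblast growth factors. Their promoter windows are shown because these were the members that fell. Each window runs from 250 bases before to 50 bases after the start of the gene, was taken from RefSeq on GRCm38.p6, and is read 5′ to 3′ on the strand of the gene. Capitals mark the GC box, GGGCGG or its complement on the other strand, and the TATA box, TATAAA. The window of Hs6st1 is chr1:36068150-36068449 on the plus strand, and those of Hs6st2, which has 2 annotated starts, are chrX:51681553-51681852 and chrX:51680428-51680727 on the minus strand.
Hs6st1: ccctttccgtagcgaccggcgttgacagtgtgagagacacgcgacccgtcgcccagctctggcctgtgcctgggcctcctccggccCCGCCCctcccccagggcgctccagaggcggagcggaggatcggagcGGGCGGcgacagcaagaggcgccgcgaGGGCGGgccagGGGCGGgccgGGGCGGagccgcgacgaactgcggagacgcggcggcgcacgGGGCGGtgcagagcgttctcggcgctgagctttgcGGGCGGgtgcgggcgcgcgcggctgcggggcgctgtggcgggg
Hs6st2, upstream start: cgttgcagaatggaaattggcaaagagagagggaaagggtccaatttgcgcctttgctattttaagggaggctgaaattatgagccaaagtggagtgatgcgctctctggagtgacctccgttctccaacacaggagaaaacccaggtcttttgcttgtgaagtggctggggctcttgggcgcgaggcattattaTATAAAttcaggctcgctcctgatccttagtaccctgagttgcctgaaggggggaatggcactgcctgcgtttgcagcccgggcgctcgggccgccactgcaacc
Hs6st2, downstream start: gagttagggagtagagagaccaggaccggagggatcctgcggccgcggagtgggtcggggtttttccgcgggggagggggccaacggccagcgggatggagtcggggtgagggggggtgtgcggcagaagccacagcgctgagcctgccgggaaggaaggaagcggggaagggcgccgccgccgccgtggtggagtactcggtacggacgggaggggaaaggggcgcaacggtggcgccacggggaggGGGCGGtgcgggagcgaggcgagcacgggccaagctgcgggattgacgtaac
The Hs6st1 window held 7 GC boxes and no TATA box, the upstream window of Hs6st2 1 TATA box and no GC box, and its downstream window 1 GC box. Windows were listed for 26 of the 32 members, 31 windows in all, and 20 of the 31 held a GC box, as did 35.66% of all 32851 windows of the table. Member windows had a median GC content of 66.3%, beside 52.7% over all windows. The letters TGTTCT, the better conserved side of the glucocorticoid response element, were searched on both strands and were in 0 of the 31 member windows and in 18.97% of all windows. The AP-1 letters TGANTCA were in 1 member window, that of Csgalnact2, and in 7.81% of all windows.

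Hs6st1 read 83.8, 107 and 267 in vehicle at 6 hrs, and 97.0, 115 and 271 with DEX. At 24 hrs it read 304, 339 and 352 in vehicle, and 185, 185 and 206 with DEX. Within each pair the DEX array was slightly higher at 6 hrs and clearly lower at 24 hrs, and the groups at 24 hrs did not overlap. DEX was at 57.9% of vehicle at 24 hrs (95% interval 48.8% to 68.7%), a log2 fold change of -0.79 ± 0.11 (SE) with an adjusted p of 0.0152 in limma with the pairs as a block. At 6 hrs it was at 107.9% (90.9% to 128.1%, adjusted p = 0.754). From 6 to 24 hrs the DEX effect differed by -0.90 in log2, with an adjusted p of 0.228, so it did not pass; 0 of 28 members passed that test and 0.00479% of all tested probe sets did, while an unadjusted p under 0.05 was seen for 7 of 28 and for 12.8% of all.

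Hs6st2 read 1793, 1414 and 1330.0 in vehicle at 6 hrs, and 1506, 1374 and 1028 with DEX. At 24 hrs it read 975, 1102 and 1399 in vehicle, and 731, 645 and 818 with DEX. DEX was lower in all 6 pairs, and the groups overlapped at 6 hrs and not at 24 hrs. The 6 pairs carry only 3 replicate numbers, and the test over both times treats the pairs of a number as separate. Over both times DEX was at 73.8% of vehicle (63.8% to 85.4%), a log2 fold change of -0.44 ± 0.09 with an adjusted p of 0.0486. At 24 hrs alone it was at 63.5% (51.7% to 78.0%) and its adjusted p of 0.0502 just missed the threshold, while at 6 hrs it was at 85.8% (69.8% to 105.3%, adjusted p = 0.576).

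A dimmer expressed probe set of Hs6st2 read 103, 77.0 and 247 in vehicle and 74.3, 61.7 and 147 with DEX at 6 hrs, and 169.8, 156 and 239.65 in vehicle and 105, 92.1 and 125 with DEX at 24 hrs. It was lower with DEX in all 6 pairs too. Its log2 fold change was -0.80 ± 0.12 at 24 hrs, with an adjusted p of 0.0277, and -0.66 ± 0.09 over both times, with an adjusted p of 0.0094. Without a replicate block the adjusted p of this probe set was 0.906 at 24 hrs and 0.898 over both times. With hybridization day as the block it was 0.0558 and 0.0227.

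Neither call was made without a replicate block, where the adjusted p was 0.923 for Hs6st1 at 24 hrs and 0.483 for Hs6st2 over both times. With hybridization day as the block in place of the pairs, it was 0.0200 for Hs6st1 and 0.0870 for Hs6st2. Leaving out any 1 pair of the tested times also ended the calls, in fits where fewer of all probe sets passed. The share was then 0.493% to 0.603% at 24 hrs and 1.58% to 1.88% over both times. For Hs6st1 at 24 hrs the adjusted p was 0.0891 without replicate 1, 0.102 without replicate 2 and 0.0901 without replicate 4. For Hs6st2 it lay between 0.0737 and 0.151. The log2 fold changes themselves moved little, to -0.82 to -0.74 for Hs6st1 and to -0.50 to -0.40 for Hs6st2.

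Markers of cartilage and of other cell types were also read at 24 hrs. Over all 20897 tested probe sets, 302 rose and 147 fell at that time, and 11468 lay below 0. Of the 15 cartilage markers, 14 lay above 0 and 1 rose, with a median log2 fold change of 0.25. Of 11 skeletal muscle markers, 8 were expressed, and 8 of 8 lay below vehicle at 24 hrs without passing, with a summed intensity of 563 to 1836 in vehicle and 421 to 1086 with DEX. Of 10 macrophage markers, 5 were expressed, and 5 of 5 lay below vehicle without passing, with sums of 670 to 821 in vehicle and 528 to 657 with DEX; the leukocyte marker Ptprc was below the minimum. Of 7 expressed markers of hypertrophic chondrocytes, 3 rose at 24 hrs, and their sums were 5331 to 7930 in vehicle and 8246 to 9966 with DEX. Of 5 expressed osteoblast markers 1 rose, Alpl, which the hypertrophic list also holds, with sums of 5820 to 5984 in vehicle and 6306 to 8823 with DEX. These sums also hold Ibsp of the hypertrophic list (means of 1290 in vehicle and 2439 with DEX) and Col1a1 of the fibroblast list (4267 and 4176). They are thus not separate from those lists. Of 11 tendon and perichondrial fibroblast markers, 1 rose (Postn) and 1 fell (Twist2), and the sums overlapped, at 14298 to 16709 in vehicle and 12536 to 19233 with DEX. Of 8 endothelial markers, 1 was expressed. The part of these cell types in the values of Hs6st1 and Hs6st2 was not tested.

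**Figure D3:**
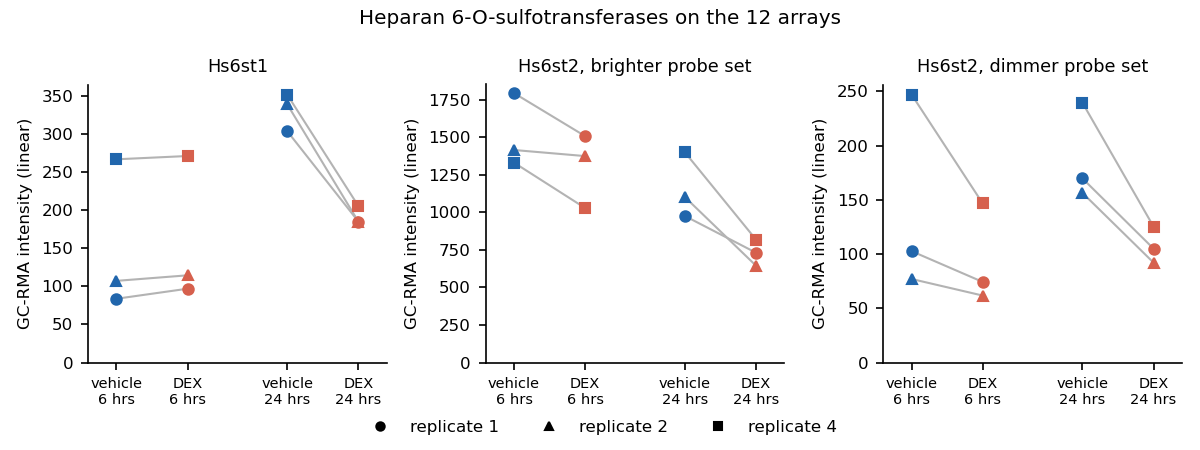
Linear GC-RMA intensity of Hs6st1 and of the 2 expressed probe sets of Hs6st2 on all 12 arrays, with a grey line joining the vehicle (blue) and the DEX (red) array of each pair; symbols are the replicates. At 24 hrs every DEX array lies below every vehicle array in the 3 panels, and at 6 hrs the Hs6st1 lines are nearly flat.

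The remaining heparan modification members did not pass. Hs2st1, which sulfates the uronic acid of heparan, had 608, 634 and 479.84 in vehicle and 644, 529 and 439 with DEX at 6 hrs, and 525, 620.1 and 575 in vehicle and 609, 535 and 560.2 with DEX at 24 hrs. The groups overlapped at both times, and the log2 fold change at 24 hrs was -0.01, with an interval from -0.31 to 0.29. Ndst2, a deacetylase and sulfotransferase acting on glucosamine, showed a 24 hrs log2 fold change of -0.08, and Glce, the epimerase of heparan, one of 0.07. The intervals of both held 0. In this role 4 of 5 members lay below 0 at 24 hrs, which became 3 of 5 with median centring, since Hs2st1 crossed 0.

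**Figure D4:**
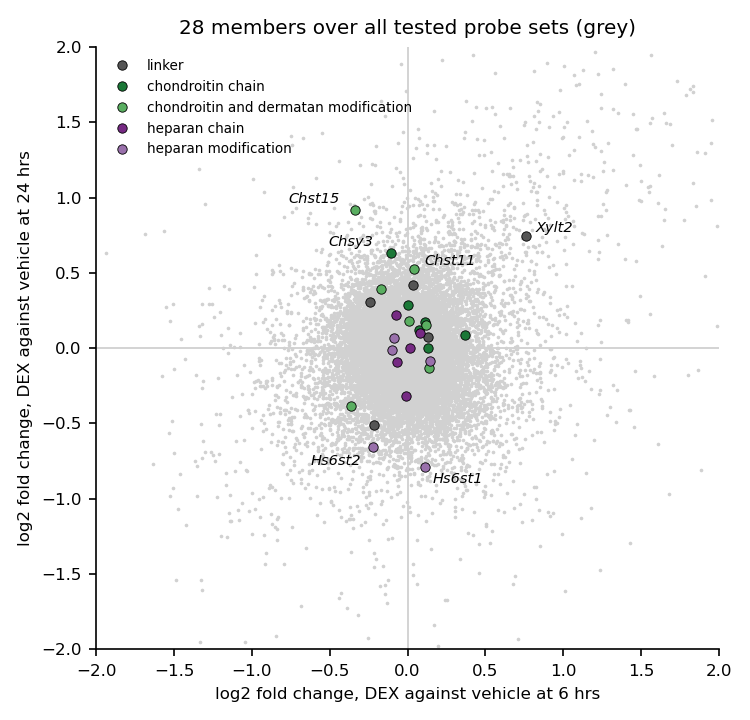
Log2 fold change of DEX against vehicle at 6 hrs (x axis) and 24 hrs (y axis) for the 28 members, coloured by role, over all 20897 tested probe sets in grey; the axes end at ±2, and 64 grey points lie outside. Most members sit inside the dense grey cloud, with Hs6st1 at -0.79 and Hs6st2 at -0.65 at its lower edge and Chst15 at 0.92 at its upper edge on the 24 hrs axis.

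Other genes of the pathway were taken from 5 lists. Among 15 further chain enzymes, 4 were expressed and 1 fell over both times, Pxylp1, the phosphatase that removes the phosphate Fam20b adds (log2 fold change -0.61 ± 0.12, adjusted p = 0.0392). Among 23 genes that supply activated sugars and sulfate, 21 were expressed and 1 rose at 24 hrs, Slc35d1, a transporter of nucleotide sugars into the endoplasmic reticulum that cartilage needs for chondroitin sulfate. Slc35d1 read 494, 701 and 470.4 in vehicle and 914, 1160.2 and 755 with DEX at 24 hrs, without overlap, a log2 fold change of 0.77 ± 0.11 with an adjusted p of 0.0199. In that list 17 of 21 genes lay above 0 at 24 hrs, where 45.1% of all tested probe sets did, and their median was 0.13.

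Of the 29 core protein genes to which the chains are attached, 24 were expressed and 0 passed at either time or over both; unadjusted p in limma was under 0.05 for 3 of them at 6 hrs (11.3% of all tested probe sets), for 4 at 24 hrs (17.1%) and for 6 over both times (14.7%), and the log2 fold changes at 24 hrs ran from -0.63 to 0.58. Of 24 genes that break chains down or edit them outside the cell, 19 were expressed and 1 passed over both times, Ids, the lysosomal iduronate sulfatase, which rose by 0.94 ± 0.15 in log2 (adjusted p = 0.0199). Its other 3 expressed probe sets rose over both times too, by 0.88 to 0.96.

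Keratan sulfate, a chain built on another linker, had 10 of 13 genes expressed. Chst1, which sulfates galactose in keratan, read 81.1, 94.97 and 109 in vehicle and 34.1, 44.6 and 43.3 with DEX at 6 hrs, and 145, 132 and 82.6 in vehicle and 64.2, 55.2 and 57.2 with DEX at 24 hrs. The groups did not overlap at either time, and it fell by 1.22 at 6 hrs (adjusted p = 0.0218) and by 0.99 at 24 hrs (adjusted p = 0.0301) on the log2 scale. Chst2, which sulfates N-acetylglucosamine, fell over both times by 0.65 (adjusted p = 0.0247). Omd, the small keratan sulfate proteoglycan osteomodulin, rose by 0.86 at 6 hrs and by 2.24 at 24 hrs, with adjusted p-values of 0.0310 and 5.87e-04. Without a replicate block, Chst1 and Omd passed over both times (adjusted p = 0.0079 and 1.70e-04), and Slc35d1, Pxylp1, Chst2 and the representing probe set of Ids did not (0.577, 0.955, 1.00 and 0.162).

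**Figure D5:**
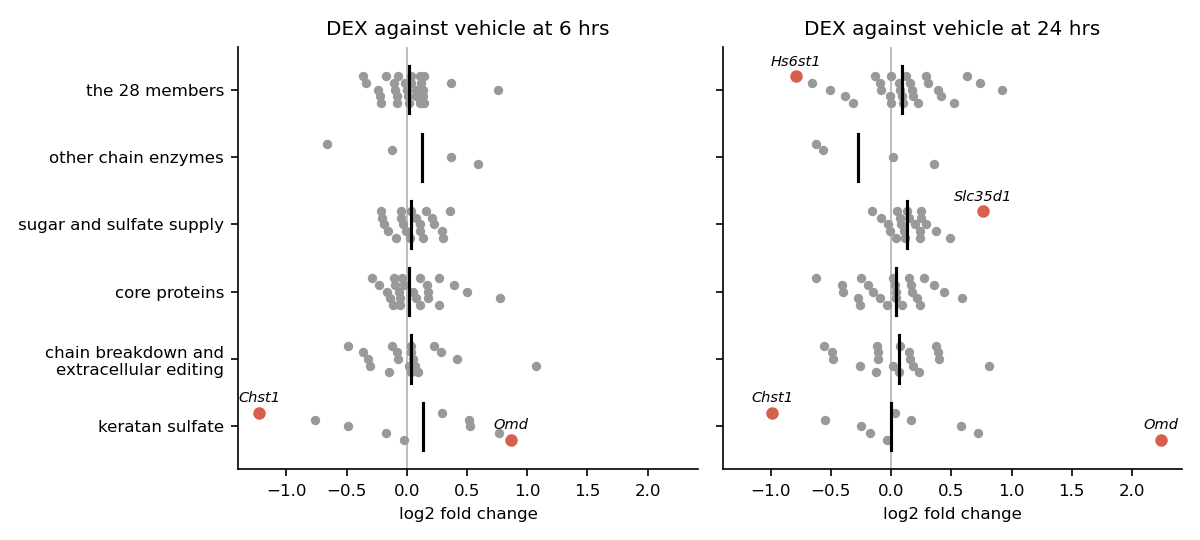
Log2 fold change of DEX against vehicle at 6 hrs (left) and 24 hrs (right) for the 28 members and for the expressed genes of 5 lists of related genes; grey points did not pass the test, red named points passed, and black ticks are medians. The medians lie close to 0 in most lists. Chst1 of the keratan sulfate list is the lowest point at both times, and Omd of that list is the highest at 24 hrs. At 6 hrs the highest point, at 1.07, belongs to the list of chain breakdown and extracellular editing.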

How the data were processed

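RNA of 12 samples was hybridized to arrays of 45101 probe sets. GC-RMA, run by the authors in GeneSpring GX, turned scans into values (the submitters' notes name GCRMA and no version), and the deposited values are linear intensities, which subtract background estimated from probe sequence. Differences between dim probe sets are therefore less certain. The authors' normalization was kept. Here intensities were put on the log2 scale with no pseudocount. The 20897 probe sets whose mean reached 50 in any group were tested with limma 3.58.1 in R 4.3.3 (lmFit, eBayes, all 12 arrays), blocked by pair of same-numbered DEX and vehicle arrays, and p was adjusted by Benjamini and Hochberg over all of them. SE is the moderated standard error.

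Samples were grouped by their labels. Pairing by replicate number was set before the tests. Deviations of same-numbered arrays from their group means correlated by 0.632 to 0.863 at 6 hrs and by 0.158 to 0.301 at 24 hrs. Same-numbered arrays also shared a hybridization day, so these correlations cannot tell a shared number from a shared day. The p-values measure the spread between these pairs. The test over both times counts the 6 and 24 hrs pairs of a number as separate. The sample titles do not say whether a number stands for the same cell isolation at both times.

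Platform symbols named 34958 probe sets; 932 had several symbols and 9211 were not listed. A gene is represented by its brightest expressed probe set. Values on every array are given for members passing any test and for the 2 brightest of each role, and genes of other lists are named where they passed. Members and lists were chosen with earlier results of these data known. Levels were not compared between the times, only the DEX effect was. Python 3.11.15 and matplotlib 3.10.9 drew the figures.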

Additional observations from a re-analysis of the deposited data

How the results depend on the processing

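At 6 hrs, and for the difference between the times, 0 members passed under every alternative run. Of all tested probe sets, 0% to 1.51% passed in these runs at 6 hrs and 0% to 0.0239% for the difference. At 24 hrs 1 member passed in the main fit. An unpaired Welch test of DEX against vehicle, at the methods' 5% false discovery rate, passed 0 of all 20897 probe sets. That test could thus call no member, and it is not the Welch ANOVA of the study, which did find changed probe sets. The count was also 0 without a replicate block (0.287% of all tested probe sets passed), without a filter on low values (0.0200%) and on the arrays of that time alone (1.30%). It was 3 with hybridization day as a block (Chsy3 and Chst11 rose, Hs6st1 fell; 2.18% of all tested probe sets passed), 2 with quantile normalization (Hs6st1 and Hs6st2; 2.71%), and 4 (Chsy3, Chst11, Hs6st1 and Hs6st2) with a mean of at least 50 in all 4 groups, with 16 added before log2, with an intensity trend, and with the mean of a gene's probe sets (3.38% to 4.16%). In those fits the called members were 7.14% to 15.4% of those tested. Leaving out 1 pair left 0 members, where 0.493% to 0.603% of all tested probe sets passed. Median centring and the Welch test at an unadjusted p under 0.01 kept Hs6st1 (2.27% and 1.82% of all), and within the day of 4 arrays the 1 member was Chst15 (0.756%).

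Over both times, where 1 passed, the count was 0 without a replicate block (0.747% of all tested probe sets passed), with the day as a block (2.87%) and without a filter (0.162%). It was also 0 with median centring (3.19%) and without the 4 arrays of the day that stood apart (1.14%). It was again 0 with the Welch test at either threshold (0.182% and 1.58%). It was 2 (Hs6st1 and Hs6st2) with the stricter filter, with 16 added, with quantile normalization, with an intensity trend and with the mean of a gene's probe sets (7.14% to 7.69% of the members, 3.28% to 4.86% of all). Leaving out 1 pair left 0 members, where 1.58% to 1.88% of all tested probe sets passed. The replicate 4 pair at 6 hrs, alone on its day, gives no test. Hs6st1 at 24 hrs had an adjusted p of 0.00388 to 0.923 over its alternatives, and Hs6st2 over both times one of 0.00725 to 1.00; no fold change turned its sign. The causes were not tested. With 3 arrays in a group, the SE of a member's log2 fold change at 1 time had a median of 0.14 and reached 0.51.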
